A study of Mus musculus with 6 samples.

Results

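Matrix metalloproteinases (MMPs) are zinc-dependent endopeptidases that cut collagens, elastin and other proteins of the extracellular matrix, and tissue inhibitors of metalloproteinases (TIMPs) bind their active sites. Most MMPs are secreted as inactive proenzymes, and a few, such as MMP14, are held in the plasma membrane and activate others. In lung, fibroblasts, epithelial cells and macrophages make different members of the family, and several of the genes are induced by growth factors and cytokines through AP-1. The genes described here are 7 MMP genes (Mmp2, Mmp3, Mmp11, Mmp12, Mmp13, Mmp14 and Mmp19) and 3 TIMP genes (Timp1, Timp2 and Timp3), 10 of the 25860 genes of the deposited count table. They were chosen by name with the values of these same libraries known, so their differences between the groups are given as a description, with the SE of the fit and no test. All 10 had at least 10 reads in sum, the limit used for the main fit.

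The lungs came from RAG1-/- mice (replicates 1, 2 and 3) and from RAG1-/- Sgo1-/+ mice (replicates 4, 5 and 6), all 12 months old, untreated and on a C57BL/6 background, with 1 library per mouse. Both groups lack RAG1 and therefore mature T and B lymphocytes, and the second carries in addition a single working copy of Sgo1, the protector of chromosome cohesion. The comparison addressed which transcripts differ in lung tissue that looked normal, in a genotype in which lung tumors develop. The tissue was whole lung, so fewer cells of a type and less RNA per cell cannot be told apart.

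The libraries held 3205822 to 9366774 reads on genes, the fewest in replicate 6. At these depths 3 reads, the smallest amount treated as detected, equal 0.320 to 0.936 CPM (reads of a gene relative to all counted reads of its library). Sgo1 itself had 0 to 6 reads per library, so that a lost copy cannot be read from it. Replicate 1 had 7717 reads of Xist against 4 to 8 elsewhere, and 2 reads of the Y-linked gene Ddx3y against 342 to 1228. It thus reads as female and the other libraries as male, so the RAG1-/- Sgo1-/+ group held no female. The labels do not give sex, and sex cannot be told apart from other traits of replicate 1. Replicate 2 had 1853 reads of the immunoglobulin gene Igkc against 0 to 8, which is not what its label gives for a mouse without B cells. Lung epithelial markers were present in all 6 libraries. Adipocyte markers were at 756 CPM in sum in replicate 1 and at 62.1 to 118 CPM in the others. Replicates 1, 2 and 6 thus stood apart from the rest, and many of the values that rest on one of them are also given without it.

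The upstream sequences of 4 members are shown because Mmp13, Mmp12 and Mmp3 are neighbors on chromosome 9, and because Mmp12, Mmp13 and Timp1 share the library in which they were highest. They are RefSeq promoters of the GRCm38.p6 assembly that end at the annotated start, read 5′ to 3′. Capitals mark the AP-1 letters TGAGTCA or TGACTCA, the TATA letters TATAAA and the GC box letters GGGCGG, each on either strand. They lie at chr9:7272364-7272513 for Mmp13, chr9:7347224-7347373 for the nearer of the 2 starts of Mmp12, chr9:7445672-7445821 for Mmp3 and chrX:20870016-20870165 for Timp1, all on the plus strand.
Mmp13: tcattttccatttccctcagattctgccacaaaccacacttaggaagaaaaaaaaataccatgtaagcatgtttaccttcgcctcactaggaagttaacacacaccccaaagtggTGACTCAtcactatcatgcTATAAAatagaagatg
Mmp12: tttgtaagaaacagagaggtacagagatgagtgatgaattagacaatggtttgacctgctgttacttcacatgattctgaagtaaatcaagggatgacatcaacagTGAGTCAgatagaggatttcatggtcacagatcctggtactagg
Mmp3: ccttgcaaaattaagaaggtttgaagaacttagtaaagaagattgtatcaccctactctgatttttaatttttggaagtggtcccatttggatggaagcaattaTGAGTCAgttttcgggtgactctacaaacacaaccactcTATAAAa
Timp1: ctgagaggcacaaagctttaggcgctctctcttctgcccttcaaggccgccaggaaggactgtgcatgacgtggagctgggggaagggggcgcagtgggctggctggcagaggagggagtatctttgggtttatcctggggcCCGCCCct

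Promoters were matched for 8 of the 10 members, and Mmp2 and Mmp19 are only named. AP-1 letters were found in 3 members, Mmp13 (35 bases before the start), Mmp12 (44 bases, at the nearer start and not at the other) and Mmp3 (46 bases). These are the 3 members of the chromosome 9 cluster. TATA letters stood in Mmp13 and Mmp3, 16 and 7 bases before the start. GC box letters were found in the other 5 members, Mmp11, Mmp14, Timp1, Timp2 and Timp3. The search covered the 250 bases before the start, of which the last 150 are printed above. Of 32851 RefSeq mouse promoters searched over the same 250 bases, 4.46% held AP-1 letters, 12.4% TATA letters and 32.7% GC box letters. Such a match is a description of the sequence and not of binding.

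**Figure D1:**
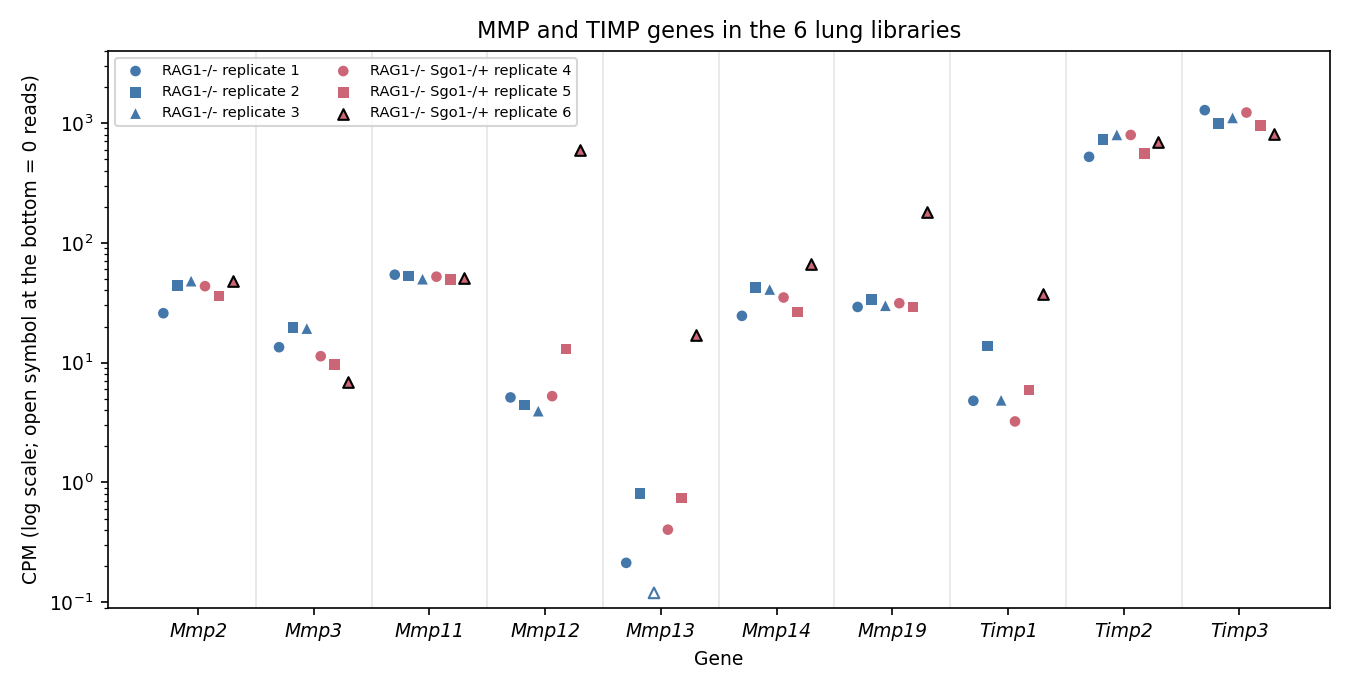
Level of each member in each library (CPM, log scale), with RAG1-/- in blue and RAG1-/- Sgo1-/+ in red. The outlined red triangle is replicate 6, which lies at 594 CPM for Mmp12, 16.8 for Mmp13, 180 for Mmp19 and 37.4 for Timp1, above the other 5 libraries, whereas the 6 libraries of Mmp11 lie between 49.3 and 54.1 CPM.

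Of the 10 genes, Mmp12, Mmp13, Mmp19 and Timp1 were far higher in 1 RAG1-/- Sgo1-/+ mouse (replicate 6) than in any other mouse, and Mmp3 was lower in all 3 RAG1-/- Sgo1-/+ libraries than in any RAG1-/- library. The remaining 5 members differed between the groups by at most 0.24 on the log2 scale. Across all genes the edgeR quasi-likelihood test called 0 of 17231 genes (0.0%) at an adjusted P under 0.05 and a 2-fold difference, with a smallest adjusted P of 0.832. At an unadjusted P under 0.05 there were 976 genes, 542 higher (3.15%) and 434 lower (2.52%) in RAG1-/- Sgo1-/+. DESeq2 called 1 gene, which is no member of the family, and limma-voom called 0.

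Mmp12, the macrophage elastase, had the largest difference among the members. Its counts were 48, 22 and 26 in RAG1-/- against 26, 70 and 1905 in RAG1-/- Sgo1-/+. Scaled to depth these were 5.12, 4.44 and 3.93 CPM against 5.25, 13 and 594 CPM, a mean of 4.50 ± 0.597 (SD, n = 3) against 204 ± 338. Replicate 6 was 45.8-fold above the next highest library and held 90.8% of the Mmp12 reads of all 6 libraries. The groups did not overlap, but replicates 4 and 1 were separated by less than their counting error: 95% exact Poisson intervals were 3.43 to 7.70 CPM in replicate 4 and 3.78 to 6.79 CPM in replicate 1. Replicate 5, with an interval of 10.1 to 16.4 CPM, lay above the intervals of replicates 1 to 4. Such intervals cover counting error only. The log2 fold change was 5.47 (SE 1.52), and without replicate 6 it was 1.01 (SE 0.41).

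Mmp13, an interstitial collagenase, was near the detection limit in 5 of the 6 mice. There were 2, 4 and 0 reads in RAG1-/- against 2, 4 and 54 in RAG1-/- Sgo1-/+, or 0.214, 0.808 and 0 against 0.404, 0.741 and 16.8 CPM. The groups overlapped, and replicate 6 alone stood out, 20.8-fold above the next library. The 12 reads of the other 5 libraries together gave 0.198 to 0.670 CPM (95% exact Poisson interval), and the 54 reads of replicate 6 gave 12.7 to 22.0 CPM. A log2 fold change of 4.15 (SE 1.46) became 0.87 (SE 1.3) without that library. The 7 markers of cartilage, a tissue known for Mmp13, had a summed level of 4.99 CPM in replicate 6 and 0.747 to 2.96 CPM in the others. Col9a1 had 0 reads in all libraries, Acan and Col2a1 were at or under 0.624 CPM in each, Col11a2 was at 0.454 to 2.22 CPM, and Comp reached 1.25 CPM in replicate 6. Their part in the Mmp13 level was not tested.

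Mmp19, a secreted protease of basement membrane and other matrix proteins, was level in 5 libraries and high in the sixth. Its counts, 273, 167 and 197 in RAG1-/- against 155, 157 and 577 in RAG1-/- Sgo1-/+, gave 29.1, 33.7 and 29.8 CPM against 31.3, 29.1 and 180 CPM. Among the first 5 libraries the coefficient of variation was 6.41%, no more than the 7.44% that counting alone gives. Replicate 6 lay 5.33-fold above the highest of them. With all libraries the log2 fold change was 1.35 (SE 0.59), and without replicate 6 it was -0.03 (SE 0.16). On the annotation, exons of Mmp19 overlap those of Tmem198b and Gm47093 on the opposite strand, and the library kit does not mark strand. Tmem198b had 22 reads (6.86 CPM) in replicate 6 and 2.83 to 6.30 CPM in the others, far below Mmp19.

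Timp1, the soluble inhibitor that many cytokines induce, followed the same library. It had 45, 68 and 32 reads in RAG1-/- against 16, 32 and 120 in RAG1-/- Sgo1-/+, or 4.80, 13.7 and 4.84 CPM against 3.23, 5.93 and 37.4 CPM. The groups overlapped, with replicate 2 second and replicate 4 lowest. Replicate 6 was 2.72-fold above replicate 2, with an exact Poisson interval of 31.0 to 44.8 CPM against 10.7 to 17.4 CPM. The log2 fold change of 0.97 (SE 0.79) turned to -0.72 (SE 0.55) without replicate 6 and was 1.62 without replicate 2, so its sign rested on 1 library.

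**Figure D2:**
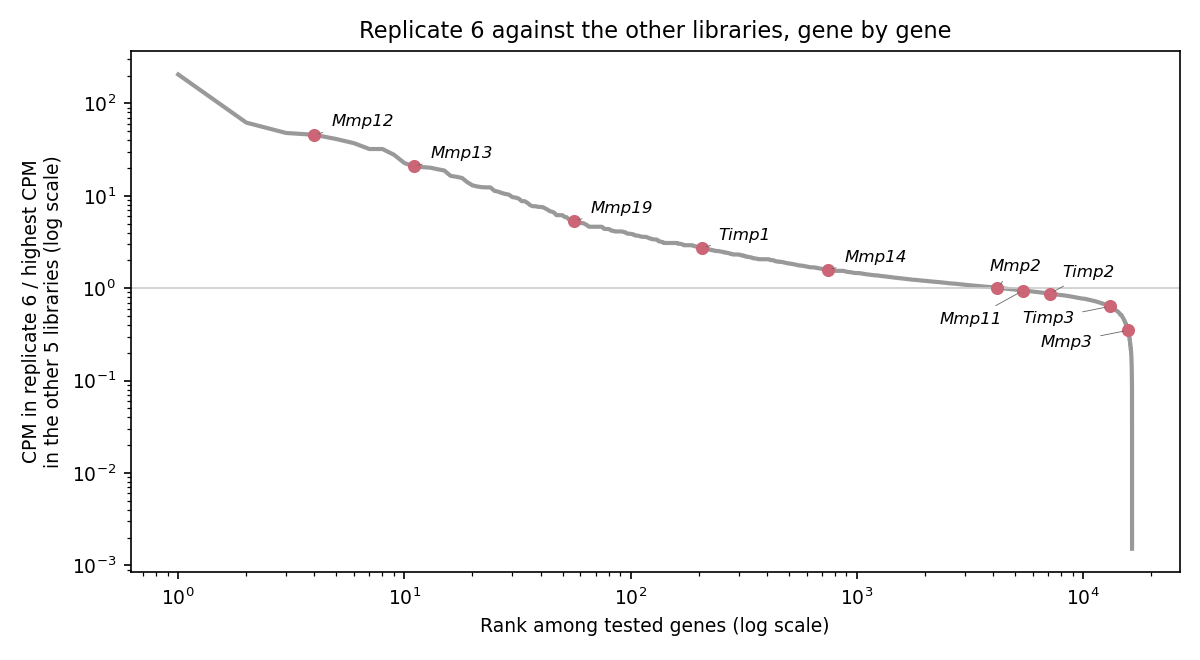
Ratio of the CPM in replicate 6 to the highest CPM of the other 5 libraries, for genes ranked by it (both axes logarithmic; genes at 0 in replicate 6 are not drawn). Red points are the 10 members: Mmp12 ranks 4, Mmp13 ranks 11, Mmp19 ranks 56 and Timp1 ranks 207 of 17226 genes, and Mmp3 lies near the end of the curve.

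The 4 members at least 2-fold above every other library in replicate 6 (a limit chosen after the values were seen) can be read against all tested genes, of which 432 (2.51%) met it. Replicate 6 was the highest library for 6 members, these 4 and Mmp14 and Mmp2 (the last by 1.01-fold), as it was for 4383 (25.4%) of all tested genes. It was the lowest for Mmp3 and Timp3, as for 3778 (21.9%) of all tested genes. Some macrophage markers moved with it. The summed level of the 13 measured markers was 19435 CPM in replicate 6 and 7967 to 11521 CPM in the others, and 9 of the 13 were highest there. Most of the rise of the sum came from Chil3 and Spp1. Chil3 reached 6083 CPM against 238 to 651 and Spp1 3541 against 140 to 220 CPM. Gpnmb reached 553 against 15.2 to 35.4, Itgax 203 against 25.5 to 48.5 and Trem2 62.4 against 4.54 to 7.88 CPM. Of the general macrophage genes, Cd68 was at 63.0 CPM there against 6.06 to 16.2 CPM in the others. Csf1r was at 73.0 CPM, below all of the others (74.6 to 96.6 CPM). Lyz2 was at 8400 CPM, within the 7233 to 10034 CPM of the others. Marco (9.98 CPM) and Fabp4 (75.2 CPM) also lay within the range of the others, 1.11 to 10.3 and 17.4 to 240 CPM. Adgre1 was at 21.2 CPM against 11.7 to 17.6 CPM. Mrc1 was at 250 CPM against 73.4 to 104 CPM, and Ear2 at 99.2 CPM against 55.4 to 78.3 CPM. Whether replicate 6 held more macrophages was not tested. What part macrophages had in the levels of Mmp12, Mmp13, Mmp19 and Timp1 was not tested either. The 8 neutrophil markers had a summed level of 187 CPM in replicate 6 and 77.2 to 252 CPM in the others. Of these, Ltf was at 144 CPM in replicate 6 against 43.2 to 146, S100a8 at 20.6 against 5.86 to 44.7 CPM, and Ly6g had 0 reads in all 6 libraries.

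**Figure D3:**
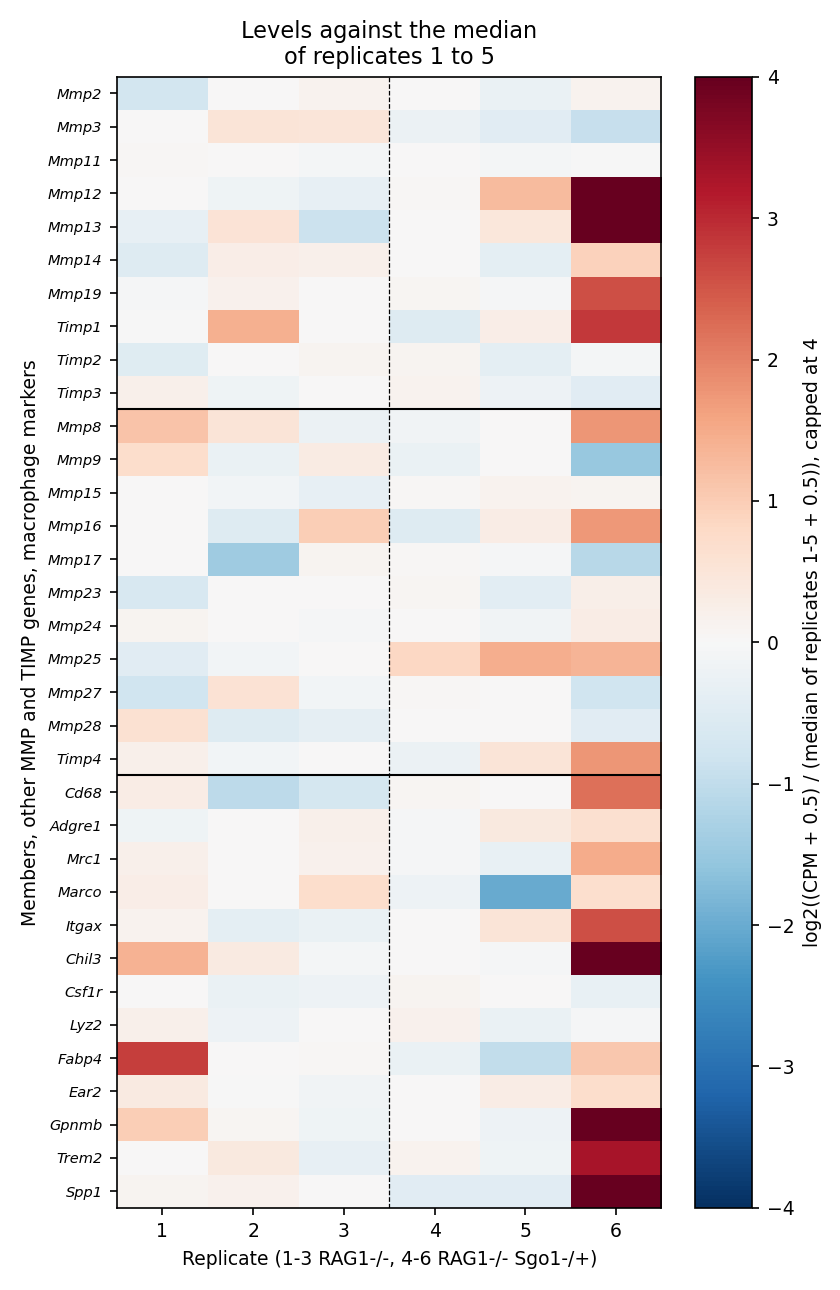
Levels of the members (top), the other fitted MMP and TIMP genes (middle) and macrophage markers (bottom) in each library, as log2 of CPM plus 0.5 relative to the median of replicates 1 to 5, with colors capped at 4. The darkest red cells are those of Mmp12, Mmp13, Chil3, Gpnmb and Spp1 in replicate 6. Mmp3 lies below that median in replicates 4, 5 and 6, in pale shades on this scale.

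Mmp3, stromelysin-1, which cuts many matrix proteins and activates other proMMPs, had the opposite pattern. It had 126, 97 and 127 reads in RAG1-/- against 56, 52 and 22 in RAG1-/- Sgo1-/+, or 13.5, 19.6 and 19.2 CPM against 11.3, 9.63 and 6.86 CPM. The means were 17.4 ± 3.44 and 9.27 ± 2.25 CPM (SD, n = 3). The groups did not overlap, although the interval of replicate 4 (8.55 to 14.7 CPM) reached that of replicate 1 (11.2 to 16.0 CPM). The log2 fold change was -0.88 (SE 0.26) and stayed between -1.05 and -0.73 when any 1 library was left out. Thus the difference in Mmp3, unlike those in Mmp12, Mmp13, Mmp19 and Timp1, did not rest on replicate 6. Fibroblast markers had a summed level of 1272 to 2098 CPM in RAG1-/- against 1301 to 1741 CPM in RAG1-/- Sgo1-/+, and 11 of the 12 had a negative log2 fold change, with a median of -0.24. Their part in the Mmp3 difference was not tested.

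Counting both directions, the groups were apart for 1 of the 10 members upward (Mmp12) and 1 downward (Mmp3). Over all tested genes they were apart upward for 1075 (6.24%) and downward for 955 (5.54%). The median log2 fold change of the members was 0.18 against 0.03 for all tested genes, and without replicate 6 it was -0.04 against 0.02.

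**Figure D4:**
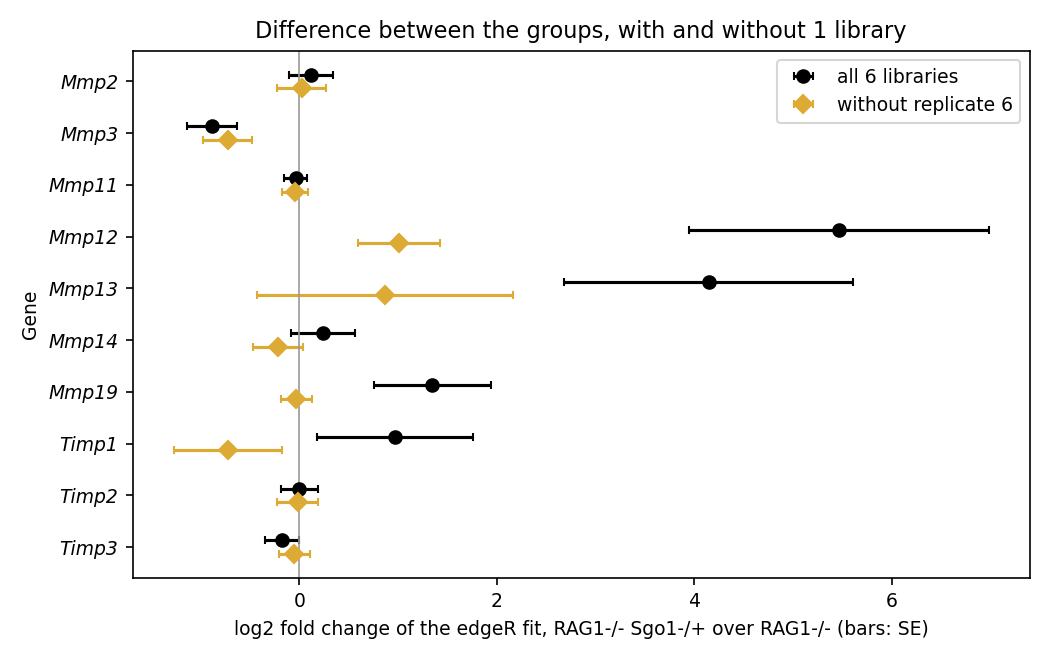
The log2 fold change of each member, RAG1-/- Sgo1-/+ over RAG1-/-, from the edgeR fit with its SE, for all 6 libraries (black) and without replicate 6 (yellow). Leaving out replicate 6 moved Mmp12 from 5.47 to 1.01, Mmp19 from 1.35 to -0.03 and Timp1 from 0.97 to -0.72, while Mmp3 went only from -0.88 to -0.73.

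The gelatinase Mmp2 and its activator Mmp14 varied between mice within the groups. Mmp2, which degrades denatured collagen and basement membrane collagen, was at 25.8, 44.0 and 47.8 CPM in RAG1-/- against 43.4, 35.9 and 48.3 CPM in RAG1-/- Sgo1-/+, a log2 fold change of 0.12 (SE 0.23). Its lowest value was that of replicate 1. Without it the log2 fold change was -0.12. Mesothelial markers were lowest in sum there too, at 373 CPM against 594 to 1361 CPM. Lrrn4 was at 4.38 CPM and Upk3b at 14.1 CPM in replicate 1, whereas Krt19, of the same 6 markers, was at 280 CPM there against 194 to 327 CPM. Whether this bears on Mmp2 was not tested.

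Mmp14, the membrane-type protease that activates proMMP2 on the cell surface, was at 24.6, 42.4 and 40.7 CPM in RAG1-/- against 34.9, 26.5 and 66.8 CPM in RAG1-/- Sgo1-/+. Replicate 6 was again highest, 1.57-fold above the next library, and replicate 1 lowest. The log2 fold change was 0.24 (SE 0.32) and turned to -0.22 (SE 0.25) without replicate 6, in both cases less than its SE. Without replicate 1 it was 0.02.

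Mmp11, stromelysin-3, which is activated inside the cell by furin, was the steadiest member. Its 6 libraries had 54.1, 52.7 and 49.6 CPM in RAG1-/- against 52.1, 49.3 and 51.2 CPM in RAG1-/- Sgo1-/+. The coefficient of variation was 3.62% over the 6 libraries. Over replicates 1 to 5 it was 4.02%, below the 5.73% that counting gives. Its log2 fold change between the groups was -0.04 (SE 0.12).

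The inhibitors Timp2 and Timp3 were by far the most abundant members. Timp2, which inhibits MMP2 and also takes part in its activation by MMP14, was at 521, 728 and 794 CPM in RAG1-/- against 793, 553 and 694 CPM in RAG1-/- Sgo1-/+. The means of 681 ± 142 and 680 ± 121 CPM (SD, n = 3) differed far less than the libraries of each group. Without replicate 1, its lowest library, the log2 fold change of Timp2 was -0.16 (SE 0.18). Timp3, the matrix-bound inhibitor that also blocks ADAM proteases, was at 1278, 986 and 1100 CPM in RAG1-/- against 1221, 948 and 811 CPM in RAG1-/- Sgo1-/+. Its groups overlapped, replicate 6 was lowest, and the log2 fold change of -0.17 (SE 0.17) was about the size of its SE. It was -0.05 without replicate 6 and -0.07 without replicate 1, the highest library.

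To compare levels between genes, CPM were divided by the length in kb of the longest coding transcript. Over replicates 1 to 5 the mean level per kb was 234 ± 30.4 for Timp3 and 183 ± 35.5 for Timp2, and Timp3 was above Timp2 in all 5. Mmp11 followed at 22.5 ± 0.907 and Mmp2 at 12.8 ± 2.84, in this order in every library, and Mmp2 was above Mmp14 in replicates 1 to 5. Mmp14 (10.4 ± 2.5), Mmp19 (9.0 ± 0.577), Mmp3 (8.13 ± 2.53) and Timp1 (7.37 ± 4.70) did not differ beyond their spread, and each neighboring pair of them changed order between libraries. Mmp12 (1.76 ± 1.04) and Mmp13 (0.162 ± 0.129) were lowest. In replicate 6 the level per kb of Mmp12 was 165, next to 187 for Timp2 and 172 for Timp3, and it was above every other MMP member.

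The sum of the 7 MMP genes per kb was 57.2, 72.8 and 70.3 in RAG1-/- against 64.8, 59.2 and 286 in RAG1-/- Sgo1-/+. The sum of the 3 TIMP genes was 417, 420 and 452 against 476, 357 and 401 on the same scale. Expressed as a percentage of the TIMP sum, the MMP sum was thus 13.7%, 17.3% and 15.5% in RAG1-/- against 13.6%, 16.6% and 71.4% in RAG1-/- Sgo1-/+, and only replicate 6 departed from the rest. Mmp12 made up 1.55% to 6.08% of the MMP sum in replicates 1 to 5 and 57.5% in replicate 6. Without Mmp12 the MMP sum was still highest in replicate 6, at 122 against 55.6 to 71.6. Timp1 made up 10.6% of the TIMP sum in replicate 6 and 0.769% to 3.70% in the others. These are transcript levels and do not give the amount of active protease or inhibitor.

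**Figure D5:**
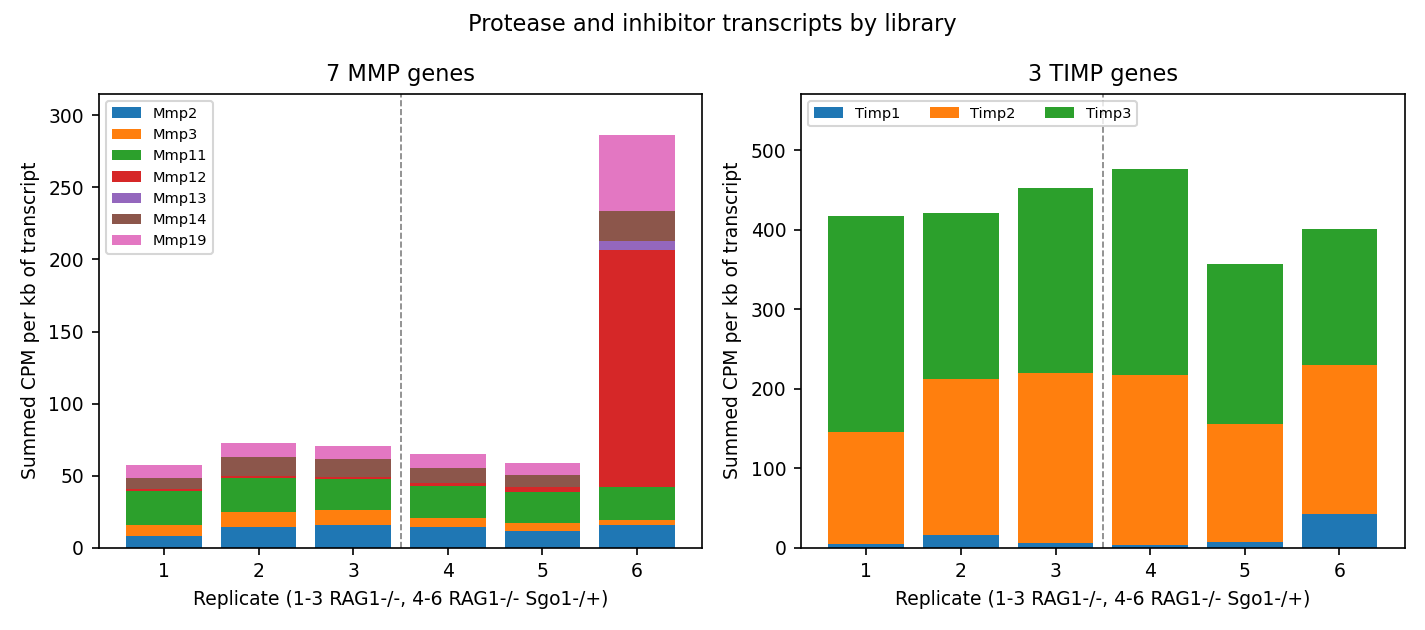
Summed CPM per kb of transcript of the 7 MMP genes (left) and the 3 TIMP genes (right) in each library, stacked by gene, on separate axes that start at 0. The MMP sum is 286 in replicate 6 and 57.2 to 72.8 in the other 5 libraries, with Mmp12 the largest block of replicate 6, and the TIMP sum lies between 357 and 476 in all 6.

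Levels over the 6 libraries were also set beside those of every other gene with a mean of at least 10 CPM (Pearson correlation of log2 CPM, a description of 6 points that share their depth). The gene most like Mmp12 was Retnla (r = 0.995), at 2580 CPM in replicate 6 and 83.6 to 133 CPM elsewhere, with replicate 5 second in both genes. Ncs1 and Brms1 followed. Mmp19 was most like Ctsb, the lysosomal protease cathepsin B (r = 0.995), at 1602 CPM in replicate 6 and 497 to 551 CPM in the others, then the unnamed gene 100503665 and Esyt1. The genes most like Mmp13 were Dolpp1, Mical1 and Sgpl1, and those most like Timp1 were Cactin, Ccdc9 and Gp1bb. Without replicate 6 the correlation with Mmp19 was 0.16 for Ctsb, and that of Mmp12 with Retnla was 0.93. Among these 4 members themselves, the correlation over the 5 libraries without replicate 6 was -0.449 for Mmp12 with Mmp19 (0.967 over all 6) and -0.0639 for Mmp12 with Timp1 (0.827). For the other 4 pairs it lay between 0.460 (Mmp13 with Mmp19) and 0.630 (Mmp19 with Timp1), against 0.875 to 0.962 over all 6. Mmp13 had only 0 to 4 reads in each of these 5 libraries, so its correlations without replicate 6 mean little.

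Mmp2 was most like the collagen gene Col6a1 (r = 0.997), which was also lowest in replicate 1 (91.3 CPM) and between 119 and 151 CPM in the other libraries, followed by Efs and Chst4. Mmp2, Mmp14 and Timp2, which act together on the cell surface, were alike without replicate 6 (r = 0.896 for Mmp2 and Mmp14, 0.910 for Mmp2 and Timp2, 0.908 for Mmp14 and Timp2, over 5 libraries). Over all 6 libraries the same pairs were less alike, at 0.811, 0.870 and 0.622. Other genes came closer, such as Nrd1 to Mmp14 (0.995) and Dcbld2 to Timp2 (0.994). Whether joint action bears on the likeness of Mmp2, Mmp14 and Timp2 was not tested. These 3 members had their lowest values in replicates 1 and 5. The genes most like Mmp14 were Nrd1, Hlcs and Nudt9, those most like Timp2 were Dcbld2, Topbp1 and Myrf, and those most like Timp3 were Ndufb9, Mpc2 and Pdzd11. Mmp3 was most like Cryzl1, Eif3e and the unnamed gene 100502686, and Mmp11 was most like Paqr7, Aven and Mars1.

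Of the 17 other MMP and TIMP genes, 11 had enough reads to be tested and 0 passed at the adjusted threshold. Mmp25, a membrane-anchored protease best known from leukocytes, had 5, 4 and 6 reads in RAG1-/- against 10, 18 and 10 in RAG1-/- Sgo1-/+, or 0.534, 0.808 and 0.908 CPM against 2.02, 3.33 and 3.12 CPM. Its groups did not overlap, and its log2 fold change of 1.90 (SE 0.60, adjusted P = 0.832) was 1.84 without replicate 6. The difference thus did not rest on that library, but each value is of few reads.

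Mmp15, a membrane-type protease, was the most abundant MMP gene measured, at 37.5 CPM per kb over replicates 1 to 5. It had 198, 184 and 157 CPM in RAG1-/- against 204, 218 and 215 CPM in RAG1-/- Sgo1-/+, again without overlap, with a log2 fold change of 0.24 (SE 0.13, adjusted P = 0.832) that was 0.15 without replicate 3. Timp4 had 5.12, 4.04 and 4.39 CPM in RAG1-/- against 3.64, 6.48 and 16.2 CPM in RAG1-/- Sgo1-/+, so that it too was highest in replicate 6. Its log2 fold change of 0.90 (SE 0.49) was 0.16 without that library. Gelatinase B (Mmp9) had the reverse order, with 70, 18 and 38 reads in RAG1-/- against 18, 24 and 4 in RAG1-/- Sgo1-/+, a log2 fold change of -0.82 (SE 0.47). Its groups overlapped, and without replicate 6 the value was -0.49.

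The other 7 tested family genes, Mmp8, Mmp16, Mmp17, Mmp23, Mmp24, Mmp27 and Mmp28, had log2 fold changes between -0.19 and 0.77 and overlapping groups. Several of these signs rested on 1 library: without replicate 6 Mmp8 went from 0.18 to -0.81 and Mmp16 from 0.77 to -0.93, and without replicate 1 Mmp28 went from -0.16 to 0.36. Of the 10 MMP genes of the chromosome 9 cluster, Mmp1a, Mmp1b, Mmp10 and Mmp20 had 0 reads in every library, Mmp7 had 2 reads in all, and Mmp27 had 10. Mmp8, the neutrophil collagenase, had 110. Genes with no or very few reads cannot show whether they shared the high levels of Mmp12 and Mmp13 in replicate 6. Of the neighbors with more reads, Mmp8 also had its highest level there, 7.49 CPM against 1.51 to 4.70 CPM. Mmp3 had its lowest there, 6.86 CPM against 9.63 to 19.6 CPM. Exons of Mmp12 overlap those of Mmp1b on the opposite strand, and since strand was not marked, reads there cannot be told apart.

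The activators, inducers and substrates of the MMPs were read from 5 further lists. Together with the other family genes, 85 of 97 such genes were tested, and 0 passed at the adjusted threshold. At an unadjusted P under 0.05, 6 of the 85 were higher and 3 lower, against 3.15% and 2.52% of all tested genes, and each had an adjusted P of 0.832. In the plasmin system, which activates proMMPs, only the urokinase receptor gene Plaur was among them, at 38.4, 21.0 and 30.0 CPM in RAG1-/- against 39.0, 34.8 and 64.3 CPM in RAG1-/- Sgo1-/+, a log2 fold change of 0.60 (SE 0.27) that was 0.29 without replicate 6. Among cofactors and other inhibitors it was Lcn2, which encodes a partner of MMP9, at 55.4 to 115 CPM in 5 libraries and 413 CPM in replicate 6, and its log2 fold change of 1.29 was 0.13 without that library. Reck, a membrane-bound MMP inhibitor, was at 42.7 CPM in replicate 6 and 50.9 to 70.7 CPM in the others. Of the 18 tested ADAM and ADAMTS genes, 0 were among them, and the most abundant, Adam10 and Adam9, had log2 fold changes of -0.10 and 0.02.

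Among the 20 inducers of MMP genes, 2 were higher and 3 lower, against 3.15% and 2.52% of all tested genes. The AP-1 gene Fos was at 93.1, 104 and 123 CPM in RAG1-/- against 22.2, 34.1 and 76.7 CPM in RAG1-/- Sgo1-/+, without overlap, a log2 fold change of -1.29 (SE 0.36). Without replicate 6 that of Fos was -1.92. Fosb, a further AP-1 subunit, had a log2 fold change of -1.14 (SE 0.49), which was -0.66 without replicate 3, and Ets1, a transcription factor that acts with AP-1 on MMP promoters, one of -0.43 (SE 0.15). Jund, the AP-1 subunit with high basal levels, was at 221 to 246 CPM in RAG1-/- against 307 to 349 CPM in RAG1-/- Sgo1-/+, a log2 fold change of 0.51 (SE 0.12). The growth factor gene Tgfb1 was at 11.7 to 18.5 CPM in RAG1-/- against 19.2 to 28.4 CPM in RAG1-/- Sgo1-/+, a log2 fold change of 0.64 (SE 0.23). Of the 20 inducers, 9 had their highest level in replicate 6 and 3 their lowest, and neither Fos nor Fosb was among the 9.

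Of the 18 matrix substrates, Spp1, which encodes osteopontin, a secreted protein that several MMPs cut, was the single gene at an unadjusted P under 0.05. It was at 211, 220 and 194 CPM in RAG1-/- against 142, 140 and 3541 CPM in RAG1-/- Sgo1-/+. Its log2 fold change of 2.61 (SE 1.04, adjusted P = 0.832) turned to -0.56 without replicate 6, so that it shared with Mmp19 and Timp1 a direction set by that library. The median log2 fold change of the 18 substrates was 0.02 with all libraries and -0.04 without replicate 6.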

How the data were processed

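RNA from lung was sequenced by the study (TruSeq RNA V2 libraries, MiSeq). The authors deposited raw read counts per gene, identified by Entrez Gene ID on mouse build 37.2, made with GeneSifter. The submitters' processing notes name BWA and edgeR. Counting settings, strand and the treatment of reads with several matches are not given in the sources used here. A second deposited table holds the authors' own comparison (fold changes and p-values) and was not used.

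Groups were taken from the labels. The groups were compared by edgeR 4.0.16 (R 4.3.3, quasi-likelihood F-test) for genes with at least 10 counts in all, with total counts as library sizes and Benjamini–Hochberg adjustment over all tested genes. The p-values set the difference between the groups against the estimated spread between mice. Alternatives used TMM factors, DESeq2 1.42.0, limma-voom (limma 3.58.1), other filters, halved counts and each library left out. Between 63.5% and 69.0% of nonzero counts were even, as when both mates are counted, so counting intervals may be too narrow. Of the genes, 93.0% had a symbol. Transcript lengths came from GENCODE M21 and promoters from RefSeq. The workflow was tested on simulated data.

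The members and the gene lists were chosen with earlier results of these data known. Named were all members, every other MMP or TIMP gene with at least 10 counts, the genes of each list with an unadjusted P under 0.05 or otherwise the 2 most abundant, the 3 genes most like each member, and the label checks. Reck, Tmem198b and the marker genes quoted were chosen after their values were seen. Protein motifs were not searched.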

Additional observations from a re-analysis of the deposited data

How the results depend on the processing

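Among the alternatives, DESeq2 called 1 gene (Awat1) where edgeR called 0, and leaving out 1 library at a time gave 0 to 1 called genes (H2-K1 without replicate 5). Genes at an unadjusted P under 0.05 numbered 571 to 1420 with 1 library left out and 611 without replicates 2 and 6 together, against 976. Of the related genes, 9 were at that level, against 5 with limma-voom and 4 to 15 with 1 library left out. The log2 ratio of the summed MMP members was 1.27, ranged from -0.0739 (without replicate 6) to 1.66 with 1 library left out, and was -0.00285 without replicates 2 and 6 together. The summed level of the MMP members was 964 CPM in replicate 6 and 152 to 198 CPM in the others. Why the numbers of genes varied between the alternatives, beyond the fewer samples, was not tested. With TMM factors 43.4% of the genes at an unadjusted P under 0.05 were higher, with DESeq2 size factors 46.2%, and with total counts 55.5%. Of 138 alternative values of the members' log2 fold changes, 131 moved by less than the spread between replicates, and 7 moved further, 6 of them without replicate 6 and 1 with limma-voom (Mmp12, 2.46). That spread was taken over all 6 libraries, so replicate 6 widened it for the members it raised. A value could also change sign and be among the 131, as that of Mmp14 did without replicate 6 (0.24 to -0.22). The count of 131 is therefore not a measure of robustness. Mmp13 could not be fitted without replicates 2 and 6, since too few reads remained. It was also removed, with all 6 libraries, by the expression filter of edgeR (filterByExpr), among the other filters used. No paired analysis was possible because the labels give no pairing of mice between the groups. At this depth, differences in Mmp13 outside replicate 6 were not detectable.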

Other observations

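The genes that lay furthest above every other library in replicate 6 were, in order, Chil4 (206-fold), Arg1 (62.1-fold), Clca1 (47.9-fold), Mmp12 (45.8-fold) and Rnase2a (41.2-fold), and Itln1, Mmp13, Retnla and Muc5ac were among the first 15. They were chosen after their values were seen. Chil4 and Arg1 are known from alternatively activated macrophages, and Clca1, Itln1 and Muc5ac from mucus-producing airway cells. Smooth muscle markers, summed, were at 72.3 to 104 CPM in RAG1-/- and 109 to 163 CPM in RAG1-/- Sgo1-/+, highest in replicate 6.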
